A study of Mus musculus with 30 samples.

Results

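The genes described here are 9 genes of the MHC class II presentation pathway: Ciita, Cd74, H2-Aa, H2-Ab1, H2-Eb1, H2-DMa, H2-DMb1, H2-Oa and Ctss. They were chosen by name, through the Ensembl identifiers of the deposited gene count table, and make up 9 of its 43629 identifiers. They were followed in bone marrow-derived dendritic cells (BMDCs), which were grown with GM-CSF from the marrow of adult mice of both sexes. The cells were wild-type (WT, C57BL/6J) or lacked Cacnb3, the gene of a regulatory subunit of voltage-gated calcium channels (Cacnb3-/-, C57BL/6N). The substrain therefore differed along with the deleted gene, and their effects cannot be told apart. For each genotype there were 5 cultures with 3 bulk RNA-seq libraries each, called here as in the library names. Those of WT were p974s846, p974s850, p974s855, p974s856 and p974s864. Those that lacked Cacnb3 were p974s843, p974s851, p974s852, p974s853 and p974s865. Values of a group are given in this order.

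By their names, the libraries of a culture form the sets ctrl, 0p5h and 24h, so that each of the 6 groups held 5 libraries. Names and treatment labels match for the 24h set, which was collected 24 hours after a pulse of 500 µM extracellular ATP for 30 minutes. For the other sets they conflict: the ctrl libraries carry the label of 30 minutes of ATP and the 0p5h libraries the label of vehicle. The sets are therefore called by library name, and which of ctrl and 0p5h was unstimulated is not settled here. A comparison of genotypes within a set does not depend on this. No label ties a number to 1 animal, so p-values measure the spread between these cultures, which may be technical.

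MHC class II molecules carry peptides from endocytosed protein to the surface of dendritic cells, where CD4+ T cells read them. Ciita is the class II transactivator, a coactivator that does not bind DNA itself but docks on the RFX and NF-Y complexes, which sit on the X and Y boxes of class II promoters. H2-Aa and H2-Ab1 encode the alpha and beta chain of I-A, and H2-Eb1 the beta chain of I-E. Cd74 encodes the invariant chain that blocks the peptide groove of new class II molecules, and Ctss encodes cathepsin S, the protease that trims it. H2-DMa and H2-DMb1 form H2-M, which exchanges the remaining fragment for peptide, and H2-Oa is the alpha chain of H2-O, an inhibitor of H2-M. When dendritic cells mature, transcription of Ciita is known to be shut down while class II protein on the surface is stabilised.

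In GRCm38 coordinates with the Ensembl models used for counting, Ciita (ENSMUSG00000022504) lies at chr16:10488178-10527564 on the plus strand. Cd74 (ENSMUSG00000024610) lies outside the H-2 complex, as does Ctss (ENSMUSG00000038642) at chr3:95526786-95556403. The other 6 genes lie in the H-2 complex on chr17, from the start of H2-Oa at 34092340 to the end of H2-Eb1 at 34316199. All counts are of reads on exons. H2-Oa (ENSMUSG00000024334) shares 15.2% of its exon bases with the antisense gene BC051537, and the counting did not use the strand. H2-DMb1 (ENSMUSG00000079547) shares 22.7% of its 50-base words with its near-copy H2-DMb2, so reads may have been lost or split between them, and its values are uncertain.

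Because Ciita acts through the X and Y boxes, these letters were searched on both strands in RefSeq promoter windows (GRCm38.p6) that reach from 250 bases before to 50 bases after a gene's start. The letters were GCAACNNNT for the X box and GATTGG for the Y box. Windows were given for 6 of the 9 genes, and Y box letters were found in 5 of them and X box letters in 2. All of these counts include H2-DMa, whose windows lie far before the counted gene. Leaving it out, Y box letters were found in H2-Aa, H2-Eb1, H2-DMb1 and H2-Oa, and X box letters in H2-Eb1 alone. Of all 32851 windows, 16.1% held the Y letters, 8.56% the X letters and 1.64% both. Stretches of 4 genes are printed, up to the start of the counted gene or the end of the matched letters, with the matched letters in capitals. H2-Eb1 was chosen as a gene with matches to both sets of letters, and H2-Aa and H2-Oa as genes with a full match to the Y box letters alone. Ctss was chosen as a pathway gene outside the H-2 complex with neither. The stretches of H2-Aa and H2-Oa do hold GCAAC before their Y box letters, and miss the searched X box letters only at the final T. An absent match therefore does not show that a promoter lacks an X box.
H2-Eb1 (chr17:34305747-34305866, plus strand): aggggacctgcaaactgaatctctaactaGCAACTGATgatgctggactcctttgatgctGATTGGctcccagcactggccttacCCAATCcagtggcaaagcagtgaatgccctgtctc
H2-Aa (chr17:34287828-34287943, minus strand): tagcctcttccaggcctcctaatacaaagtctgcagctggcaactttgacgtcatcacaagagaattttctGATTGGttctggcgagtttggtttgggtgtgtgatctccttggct
H2-Oa (chr17:34092259-34092340, plus strand): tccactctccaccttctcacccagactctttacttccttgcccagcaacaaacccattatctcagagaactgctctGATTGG
Ctss (chr3:95526666-95526785, plus strand): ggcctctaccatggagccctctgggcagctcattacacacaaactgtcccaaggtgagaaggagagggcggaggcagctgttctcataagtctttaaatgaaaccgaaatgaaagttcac

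In H2-Eb1 the X box letters began 91 bases before the RefSeq start and Y box letters 60 bases before it, both on the coding strand. Further Y box letters lay at position -35 on the other strand. The Y box letters began 49 bases before the start of H2-Aa, 44 before that of H2-Oa and 62 before that of H2-DMb1. The windows of H2-DMa started at positions -12350 and -9664 from the start of the counted gene, and their matches do not describe its promoter. A match is a run of letters and not a measured binding site.

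Library depth ranged from 8237393 to 32164225 counts on genes (median 19556920), and levels are given in CPM, the number of counts scaled to the same library total, on library sizes scaled by edgeR's TMM method. Cacnb3 RNA was present in the Cacnb3-/- libraries, with group means of 964 to 1028 CPM against 1233 to 1669 CPM in WT. The count table sums all exons of a gene and does not show a deletion of part of it. Of the 14 genes fixed as markers of mature dendritic cells (Cacnb3 among them), all reached a mean of 1 CPM, and so did 8 of 10 markers of conventional dendritic cells, while Cd209a had a mean of 0.185 CPM. B cells also carry class II, and 2 of 14 B cell markers reached that level (Ighm 41.4 CPM and Cd22 3.06 CPM), with Cd79a at 0.666 CPM. Of 10 markers of plasmacytoid dendritic cells, 5 reached a mean of 1 CPM (Bst2 525, Spib 64.1, Runx2 56.8, Tcf4 49.9 and Pacsin1 17.4 CPM). Siglech, of the same list, stood at 0.0476 CPM. H2-Ea, the I-E alpha chain gene that C57BL/6 mice do not transcribe, had a mean of 0.0834 CPM. In bulk RNA, fewer cells of a type and less RNA per cell cannot be told apart.

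The 9 genes fell into an abundant and a scarce tier. Together they held 3.29% of all counts on average, from 1.68% to 4.73% of a library. The group means of this share were 3.84% in ctrl, 3.91% in 0p5h and 3.31% in 24h in WT and 3.02%, 3.33% and 2.35% in Cacnb3-/-, so the 24h set had the lowest mean in each genotype. Per kilobase of exon, Cd74 (chr18:60803848-60812646) had the highest level, with a mean of 8992 CPM per kb and a range of 4256 to 13476 over the 30 libraries. H2-Eb1 (4336), H2-Aa (3960), Ctss (2451) and H2-Ab1 (2343 CPM per kb) followed. Cd74 was above H2-Eb1 in 30 of 30 libraries, whereas H2-Eb1 was above H2-Aa in only 22 and Ctss above H2-Ab1 in 19, so the order within these pairs did not hold in every library.

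The scarce tier held the peptide exchange genes and the transactivator. H2-DMa had a mean level of 128 CPM per kb, H2-DMb1 of 96.7, H2-Oa of 42.8 and Ciita of 15.9. The lowest H2-Ab1 library (1049 CPM per kb) lay above the highest H2-DMa library (234), and H2-DMb1 lay above H2-Oa in every library, with ranges of 66.6 to 145 and 20.8 to 66.3 CPM per kb. H2-DMa was above H2-DMb1 in 26 of 30 libraries. The RNA of the peptide editor was thus much scarcer than that of the chains it acts on.

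Ciita was the lowest and also the most variable of the 9 genes. Its highest library held 11 times the level of its lowest (34.1 and 3.09 CPM per kb), against 3.17 times for Cd74, 3.56 times for H2-Ab1 and 1.78 times for Ctss. The lowest count of Ciita in any library was 122, in the 24h library of Cacnb3-/- culture p974s843.

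**Figure D1:**
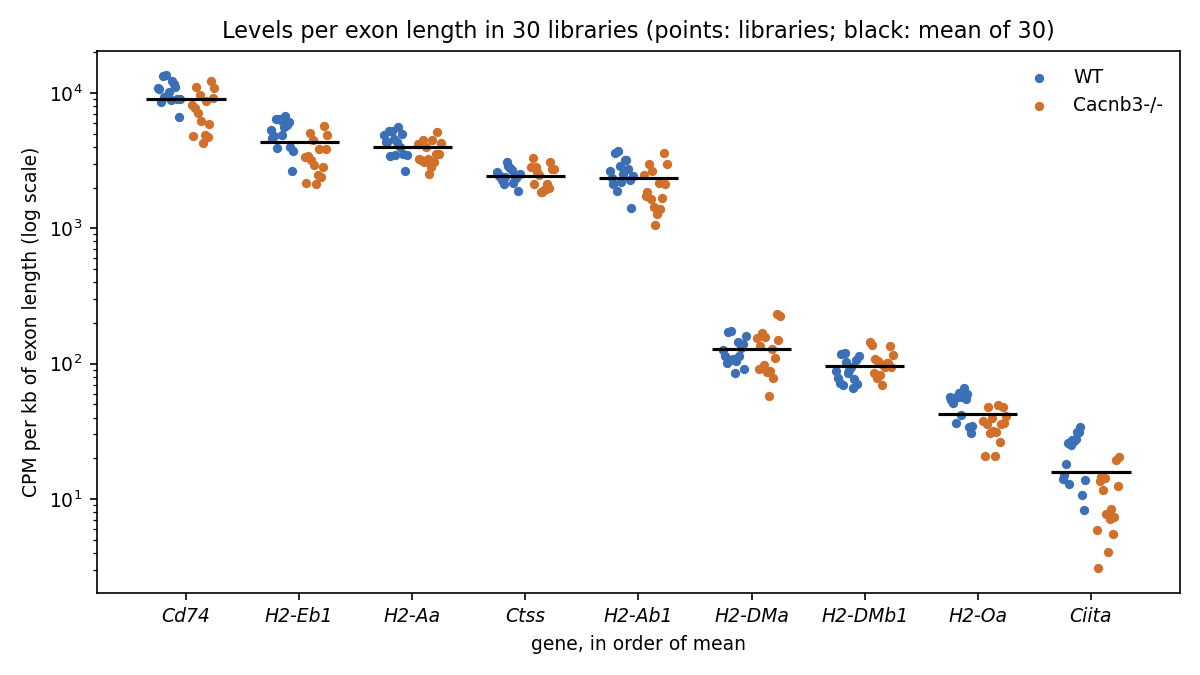
Level of each of the 9 genes in CPM per kilobase of exon length (log axis), with 1 point for each of the 30 libraries, coloured by genotype, and a black bar at the mean of all libraries. Cd74 sits at the top (mean 8992) and Ciita at the bottom (mean 15.9), and an empty band separates the 5 abundant genes from the 4 scarce ones.

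Genotypes were compared within each set, which asks whether loss of Cacnb3 went along with another level of class II transcripts. Most of the 9 genes had lower mean levels in Cacnb3-/- than in WT BMDCs, and Ciita showed the widest gap, from 1.87-fold in ctrl to 2.53-fold in 24h. The genotypes overlapped for every gene in every set, and none of the 9 genes passed the test, which was a Benjamini-Hochberg adjusted p under 0.05 over all genes and a change of at least 2-fold in edgeR's quasi-likelihood test. Over all genes that test called 0% in ctrl, 0% in 0p5h and 0% in 24h, of 13022, 12806 and 12706 genes tested.

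In the ctrl set, Ciita stood at 96.1, 132, 146, 179 and 73.1 CPM in the 5 WT cultures. In the 5 Cacnb3-/- cultures it stood at 71.1, 74.6, 37.7, 39 and 108 CPM. The 3 highest libraries were WT, but Cacnb3-/- culture p974s865 lay above 2 WT cultures. In 0p5h the WT values were 73.6, 136, 143, 164 and 56.7 CPM and the Cacnb3-/- values 30.9, 76.1, 41, 44.7 and 102 CPM. The log2 fold change of Ciita in Cacnb3-/- against WT was -0.90 (SE 0.31, adjusted p 0.249, edgeR) in ctrl and -0.95 (SE 0.36, adjusted p 0.262, edgeR) in 0p5h.

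The gap was widest in the 24h set. There Ciita stood at 79.2, 67.9, 142, 163 and 43.9 CPM in the WT cultures (99.1 ± 50.8, SD, n = 5) and at 16.2, 60.9, 21.4, 28.9 and 65.7 CPM in the Cacnb3-/- cultures (38.6 ± 23.1, SD, n = 5). Cacnb3-/- cultures p974s851 and p974s865 lay above the lowest WT culture, p974s864, and the other 3 lay below all WT cultures. The log2 fold change was -1.34 (SE 0.44, adjusted p 0.0576, edgeR). DESeq2 gave -1.36 with an adjusted p of 0.0145 and so called the gene, in a comparison where it called 4.74% of all genes and gave 26.4% an adjusted p under 0.05. Removing a trend with GC content gave -1.06 (adjusted p 0.139, edgeR).

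With the 3 libraries of each culture summed, so that a culture counts once, Ciita differed by -1.01 on the log2 scale (SE 0.33, adjusted p 0.136, edgeR), a 2.01-fold lower level. Again 0% of all 14833 genes were called by edgeR, while DESeq2 called 1.74% and gave 7.11% an adjusted p under 0.05, and called Ciita (-1.03, adjusted p 0.0393). Without WT culture p974s864 or without Cacnb3-/- culture p974s865, the edgeR test called Ciita in 24h (-1.52, adjusted p 0.0382, and -1.60, adjusted p 0.0193) and in the summed libraries (-1.18, adjusted p 0.0432, and -1.25, adjusted p 0.0489). Without any 1 of the other 8 cultures, the 24h value lay between -1.56 and -1.09 with adjusted p between 0.0705 and 0.139 in edgeR.

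The 3 lowest Ciita libraries of the 24h set, Cacnb3-/- cultures p974s843, p974s852 and p974s853, were also the shallowest of that set, with 8237393, 11986891 and 11388082 counts. They were the only Cacnb3-/- libraries of the set from sequencing lane 3, where the single WT library stood at 142 CPM and these 3 at 16.2 to 28.9 CPM. In lane 1, WT stood at 43.9 and 67.9 CPM and Cacnb3-/- at 60.9, and in lane 2, WT stood at 79.2 and 163 CPM and Cacnb3-/- at 65.7. Without these 3 libraries the Ciita difference in 24h was -0.64 (SE 0.45, adjusted p 0.711, edgeR). A smaller difference had to follow, because the libraries left out were those with the lowest Ciita. Only cultures p974s851 and p974s865 then stood for Cacnb3-/-, so this fit cannot show the part of depth. With lane as a covariate it was -1.24 (adjusted p 0.105, edgeR). The part of depth and lane in the difference was not tested further. Summed levels of the 14 mature dendritic cell markers also differed by genotype in the 24h set. They were 23986 to 32247 CPM in the 5 WT and 12531 to 21192 CPM in the 5 Cacnb3-/- libraries, without overlap. In ctrl the genotypes overlapped (16188 to 31636 CPM in WT, 12989 to 18246 CPM in Cacnb3-/-). They also did in 0p5h (19122 to 33513 CPM in WT, 13412 to 23049 CPM in Cacnb3-/-). The part of these markers in the result was not tested.

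**Figure D2:**
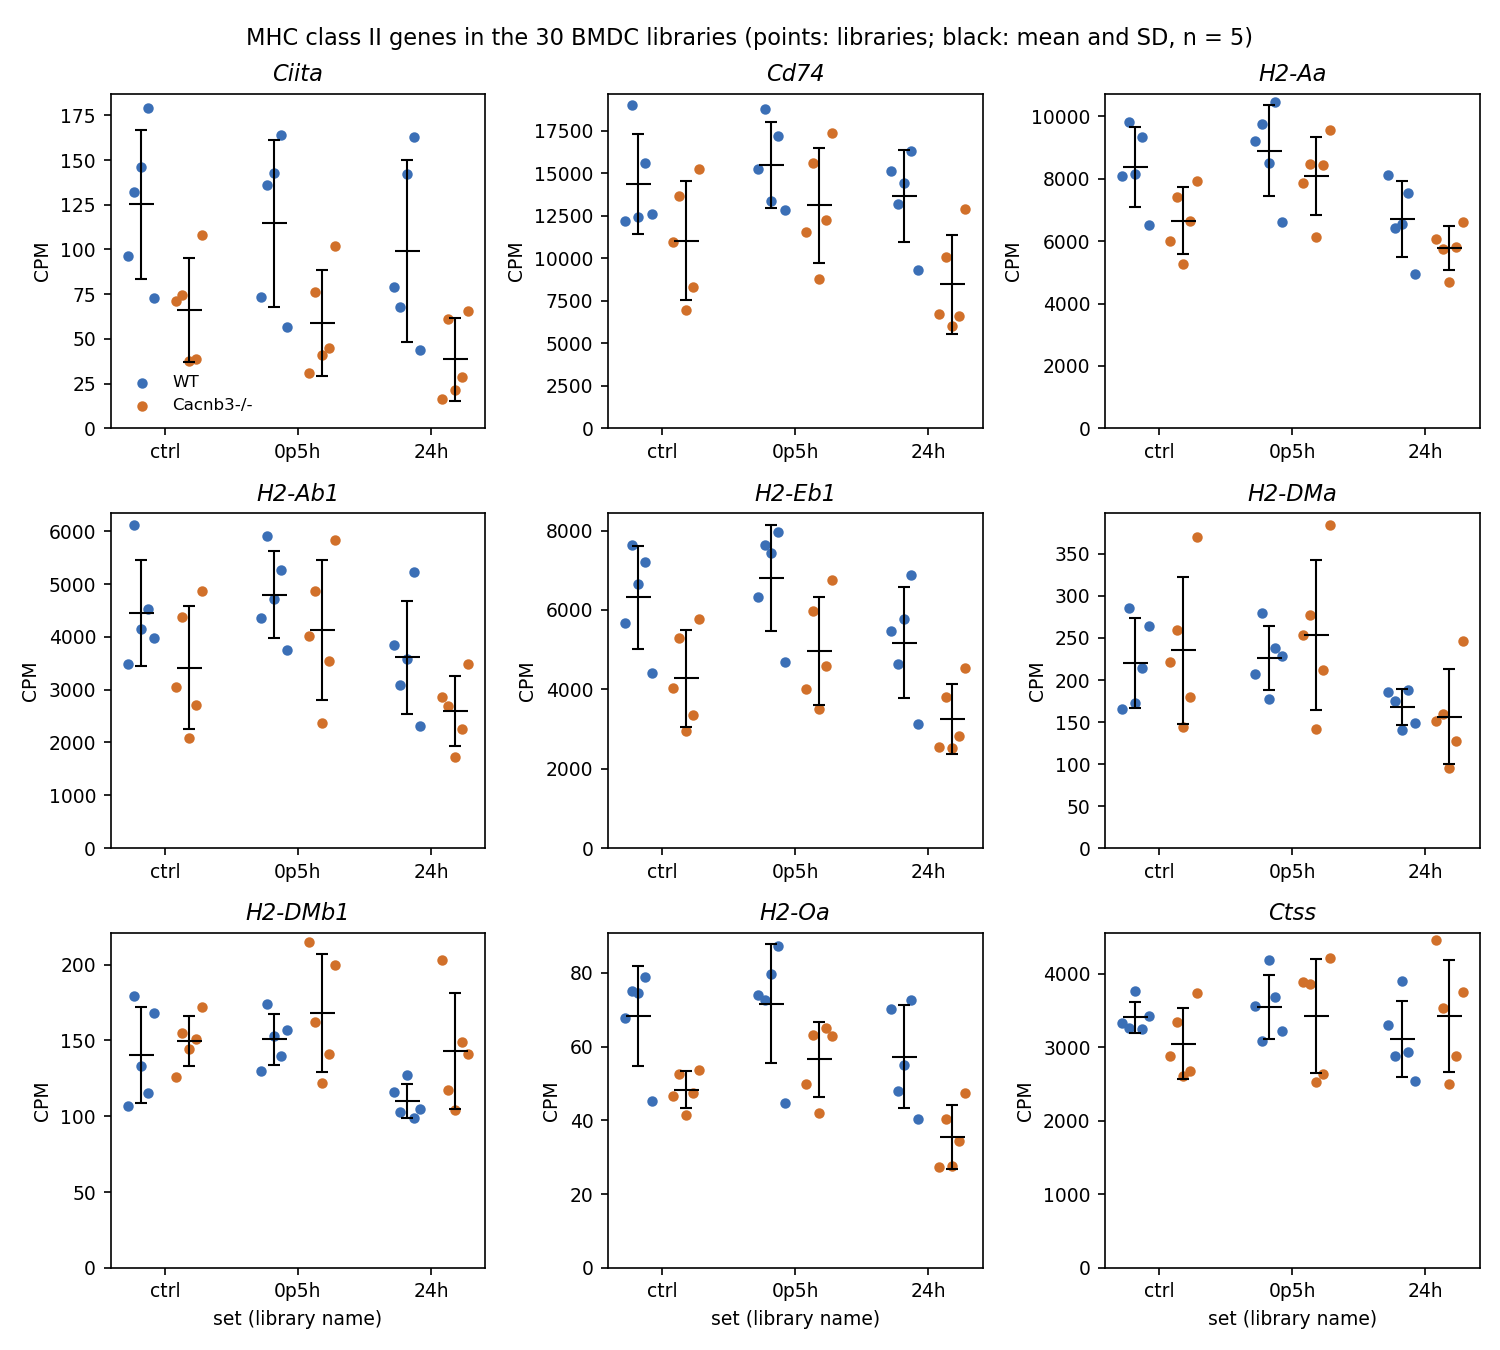
Level in CPM (linear axes from 0) of each of the 9 genes in the sets ctrl, 0p5h and 24h, with 1 point per library, and the mean and SD of the 5 libraries of each genotype. The Cacnb3-/- points of Ciita reach down to 16.2 CPM in 24h, and the genotypes overlap for every gene in every set.

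Among the genes that Ciita is known to drive, H2-Oa, H2-Eb1 and Cd74 had the next lowest ratios in 24h, and the same cultures marked their extremes. H2-Oa, the H2-O alpha chain, stood at 70.3, 47.9, 55.1, 72.6 and 40.4 CPM in the WT cultures and at 27.3, 40.5, 27.5, 34.5 and 47.5 CPM in the Cacnb3-/- cultures. H2-Eb1, the I-E beta chain, stood at 5479, 4639, 5774, 6875 and 3131 CPM in WT and at 2553, 3795, 2534, 2829 and 4526 CPM in Cacnb3-/-. Cd74, the invariant chain, stood at 15132, 13200, 14424, 16304 and 9284 CPM in WT and at 6739, 10054, 6001, 6620 and 12864 CPM in Cacnb3-/-. For each of them, as for Ciita, the lowest WT library was culture p974s864, the highest Cacnb3-/- library was culture p974s865, and 2 of 5 Cacnb3-/- libraries lay above the lowest WT library.

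The log2 fold changes in 24h were -0.67 for H2-Oa (SE 0.20, adjusted p 0.0525), -0.66 for H2-Eb1 (SE 0.24, adjusted p 0.0743) and -0.68 for Cd74 (SE 0.26, adjusted p 0.0788) in edgeR. Each missed the threshold, and each was under 2-fold. In DESeq2 their adjusted p-values were 0.0174, 0.0276 and 0.0246, again below 2-fold. Removing a trend with GC content gave smaller differences of -0.29, -0.44 and -0.35 (adjusted p 0.219, 0.19 and 0.28, edgeR). Without the 3 shallow Cacnb3-/- libraries the values were -0.38, -0.32 and -0.26, and 0 genes of 13487 were called by edgeR. Those libraries also held the lowest levels of these genes in the set, so smaller differences had to follow. In ctrl and 0p5h the differences were -0.48 and -0.32 for H2-Oa, -0.54 and -0.44 for H2-Eb1, and -0.37 and -0.23 for Cd74, with adjusted p of 0.246 or more in edgeR.

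The I-A chains differed less before any removal of a trend with GC content. H2-Ab1 in 24h had a lowest, median and highest level of 2320, 3587 and 5228 CPM in WT and of 1717, 2691 and 3493 CPM in Cacnb3-/-, with a log2 fold change of -0.46 (SE 0.24, adjusted p 0.177, edgeR). For H2-Aa the 24h levels were 4931, 6541 and 8125 CPM in WT and 4695, 5806 and 6626 CPM in Cacnb3-/-, with a log2 fold change of -0.20 (SE 0.18, adjusted p 0.436, edgeR). With the GC trend removed, the 24h values were -0.09 for H2-Ab1 (adjusted p 0.77) and -0.35 for H2-Aa (adjusted p 0.252, edgeR). The genotypes overlapped, with 3 of 5 Cacnb3-/- libraries of H2-Ab1 and 4 of 5 of H2-Aa above the lowest WT library. In ctrl and 0p5h the differences were -0.36 and -0.20 for H2-Ab1 and -0.31 and -0.12 for H2-Aa, none past the threshold in edgeR.

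The remaining genes had no common direction. H2-DMa, the H2-M alpha chain, had log2 fold changes of 0.11 in ctrl, 0.18 in 0p5h and -0.09 in 24h (SE 0.22 to 0.25, adjusted p 0.697 to 0.836, edgeR), and without the 3 shallow Cacnb3-/- libraries its 24h value was 0.27. H2-DMb1, the H2-M beta chain, was at 116, 103, 127, 98.9 and 105 CPM in the WT and at 203, 117, 104, 149 and 141 CPM in the Cacnb3-/- 24h libraries. Its log2 fold change there was 0.39 (SE 0.17, adjusted p 0.122, edgeR), the only one of the 9 with a higher level in Cacnb3-/- at an unadjusted p under 0.05. Ctss, cathepsin S, differed by -0.14 in ctrl, -0.04 in 0p5h and 0.15 in 24h (adjusted p 0.587 to 0.934, edgeR).

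Counted together, the unadjusted p was under 0.05 with a lower level in Cacnb3-/- for 3 of the 9 genes in ctrl, 1 in 0p5h, 4 in 24h and 3 in the summed libraries. Over all genes tested by edgeR, those shares were 8.65%, 8.06%, 18.3% and 11.7%. Genes with every Cacnb3-/- library below every WT library made up 1.27% of all genes in ctrl, 1.13% in 0p5h and 3.79% in 24h, and none of the 9 was among them. The median log2 fold change of the 9 genes was -0.36 in ctrl, -0.20 in 0p5h, -0.46 in 24h and -0.33 in the summed libraries, beside medians of 0.03, 0.02, 0.01 and 0.02 over all genes. In each comparison 7 of the 9 values were negative. With a trend with GC content removed in edgeR, the 24h median was -0.29, and 2 of the 9 genes were lower at an unadjusted p under 0.05. The 3 sets come from the same cultures and are not independent of each other.

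**Figure D3:**
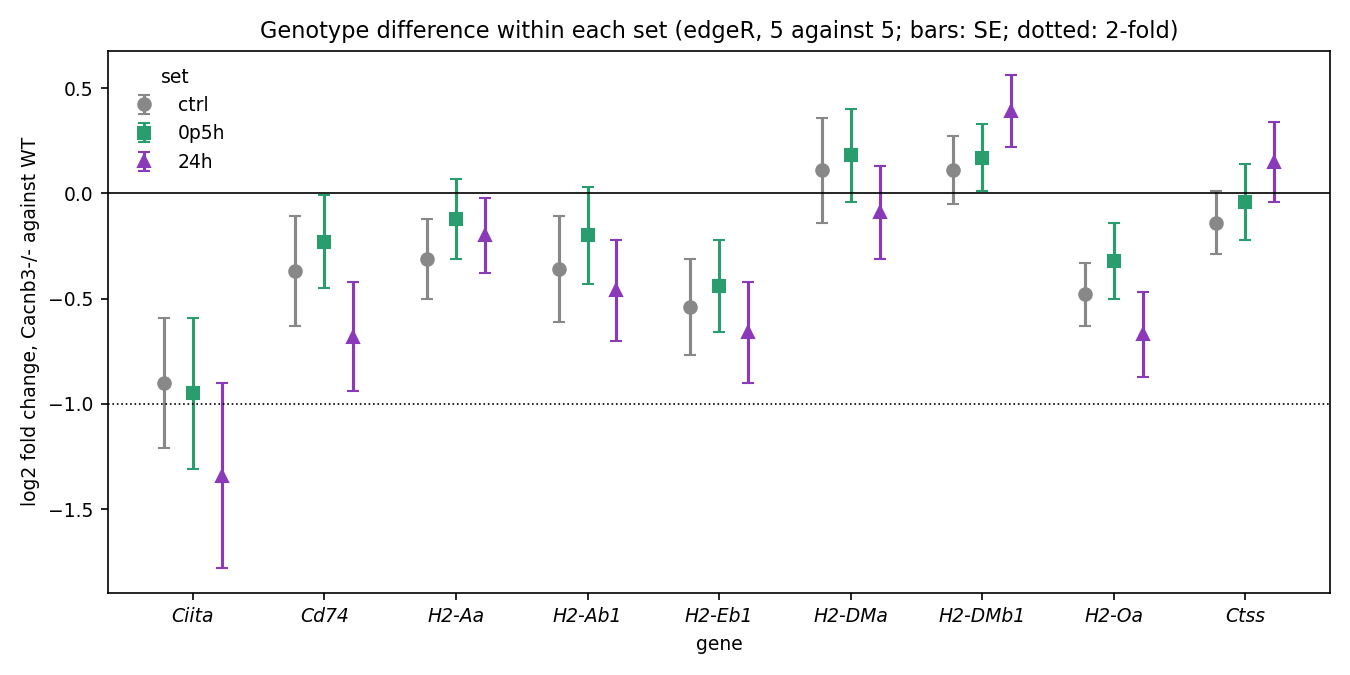
log2 fold change of Cacnb3-/- against WT for each of the 9 genes in ctrl, 0p5h and 24h, with bars for the standard error of the edgeR fit and a dotted line at a 2-fold lower level. Ciita lies furthest to the negative side in every comparison (-1.34 in 24h), and H2-DMa, H2-DMb1 and Ctss lie around 0.

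Sets were then compared within each genotype, which asks how the class II genes moved between the sampled states. For 24h against 0p5h, each culture was also set against itself. Most of the 9 genes then had an adjusted p under 0.05 in Cacnb3-/- cultures, with falls of 1.38-fold to 1.61-fold. In WT cultures 4 genes did, although all 9 values were negative there too. None reached 2-fold. The gap between the genotypes depended on GC content. The median log2 fold change of the blocked edgeR fit was -0.63 in Cacnb3-/- and -0.41 in WT. With a trend with GC content removed it was -0.43 in Cacnb3-/- and -0.39 in WT, with 7 and 6 genes at an adjusted p under 0.05. Without the pairing by culture, none of the 9 passed. The percentages of all genes called by edgeR in these unpaired tests were 0.176% for WT 0p5h against ctrl, 0.0152% for WT 24h against ctrl and 0.639% for WT 24h against 0p5h. In Cacnb3-/- they were 0.29%, 0% and 0.66% in the same order.

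Unpaired, the lowest adjusted p among the 9 genes was 0.0817, for H2-DMb1 in WT 24h against 0p5h (log2 fold change -0.45, SE 0.11, edgeR). In Cacnb3-/- it was 0.124, for H2-Oa in 24h against 0p5h (-0.66, SE 0.18, edgeR). Unadjusted p-values under 0.05 were found for 3 of the 9 genes in WT and 6 in Cacnb3-/- in this comparison, beside 11.2% and 17.5% of all genes in edgeR. DESeq2 gave an adjusted p under 0.05 to 1 of the 9 in each genotype, beside 2.58% and 3.26% of all genes. Libraries with the same culture number deviated together from their group means, as described under the processing, so the fit with the culture as a block is given beside the unpaired one. It gave an adjusted p under 0.05 to 11.3% of all genes in WT 24h against 0p5h and to 28.6% in Cacnb3-/-, with 6.78% and 14.4% lower in 24h. With the 2-fold minimum it called 1.78% and 2.88%.

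In the Cacnb3-/- cultures, 7 of the 9 genes had an adjusted p under 0.05 in that blocked comparison, and all 7 fell. Ciita went from 30.9, 76.1, 41, 44.7 and 102 CPM in 0p5h to 16.2, 60.9, 21.4, 28.9 and 65.7 CPM in 24h. It was lower in every culture, with ratios of 0.521 to 0.8, although the 2 sets overlapped. The blocked log2 fold change was -0.66 (SE 0.11, adjusted p 0.00163, edgeR), beside -0.59 (SE 0.42, adjusted p 0.445) without the block. The deeper cultures p974s851 and p974s865 fell as well, and p974s851 had the highest ratio (0.8). The part of depth in this fall was not tested. Macrophage markers moved with this step: the summed level of 14, of which 13 reached a mean of 1 CPM and Cd163 did not, had a median of 3226 CPM in 0p5h (range 1136 to 4939) and of 1774 CPM in 24h (1085 to 2336) in Cacnb3-/-. In WT the medians were 2271 CPM (1988 to 3670) and 1403 CPM (1257 to 2436). Their part in the fall of the class II genes in either genotype was not tested.

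H2-DMa had a step of similar size. Its levels went from 253, 277, 142, 212 and 384 CPM to 151, 160, 95, 128 and 247 CPM, with a blocked log2 fold change of -0.69 (SE 0.08, adjusted p 2.61e-04, edgeR). Every culture fell by a similar factor, with ratios of 0.576 to 0.667. The mean level of Cd74 went from 13101 ± 3396 to 8456 ± 2930 CPM (SD, n = 5), that of H2-Eb1 from 4963 ± 1363 to 3248 ± 880 CPM, and that of H2-Aa from 8093 ± 1252 to 5789 ± 704 CPM. H2-Ab1 went from 4128 ± 1320 to 2603 ± 664 CPM and H2-Oa from 56.6 ± 10.2 to 35.5 ± 8.69 CPM. For Cd74, H2-Ab1 and H2-Eb1 the SD between cultures was a large part of the step, and the block removes the spread that a culture carried in both sets. H2-Oa fell by 0.67 (SE 0.10, adjusted p 8.77e-04), Cd74 by 0.64 (SE 0.10, adjusted p 0.0016), H2-Ab1 by 0.63 (SE 0.10, adjusted p 0.00132), H2-Eb1 by 0.60 (SE 0.09, adjusted p 0.00114) and H2-Aa by 0.47 (SE 0.09, adjusted p 0.0048) on the log2 scale in the same blocked edgeR fit. Each was lower in 5 of 5 cultures. The 2 others were H2-DMb1, lower in 4 of 5 cultures (-0.23, adjusted p 0.112), and Ctss, lower in 3 of 5 (0.01, adjusted p 0.927, edgeR). With any 1 culture left out, 7 of the 9 genes still had an adjusted p under 0.05 in the blocked edgeR fit.

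In the WT cultures, all 9 values were negative between 0p5h and 24h in the blocked fit, and 4 genes had an adjusted p under 0.05. H2-DMb1 went from 130, 174, 153, 140 and 157 CPM to 116, 103, 127, 98.9 and 105 CPM. Its sets did not overlap, and its blocked log2 fold change was -0.45 (SE 0.09, adjusted p 0.0161, edgeR). H2-DMa went from 207, 280, 177, 238 and 228 CPM to 186, 175, 141, 188 and 149 CPM (-0.42, SE 0.09, adjusted p 0.0169, edgeR). H2-Aa (-0.41, SE 0.09, adjusted p 0.0227) and H2-Eb1 (-0.41, SE 0.10, adjusted p 0.0346, edgeR) completed the 4, and all were lower in 5 of 5 cultures.

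Which WT genes passed the threshold depended on single cultures. Without culture p974s864, 0 of the 9 genes had an adjusted p under 0.05 in the blocked edgeR fit, without p974s850 or p974s855 it was 1, without p974s846 it was 3, and without p974s856 it was 5. The share of all genes in these smaller fits is not given here. The values moved less, at -0.52 to -0.37 for H2-DMb1, -0.49 to -0.36 for H2-DMa, -0.47 to -0.36 for H2-Aa and -0.47 to -0.34 for H2-Eb1. Their highest adjusted p was 0.119 (H2-Eb1, edgeR). H2-Oa (-0.32, adjusted p 0.0572), H2-Ab1 (-0.44, adjusted p 0.068), Ctss (-0.19, adjusted p 0.176), Ciita (-0.25, SE 0.15, adjusted p 0.309) and Cd74 (-0.18, adjusted p 0.348) did not pass in the blocked edgeR fit of all WT cultures. Of these, H2-Oa, H2-Ab1 and Ctss were nevertheless lower in 5 of 5 WT cultures. Ciita was lower in 4 of 5 WT cultures, with ratios of 0.499 to 1.08, and so was Cd74, with ratios of 0.703 to 1.08.

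**Figure D4:**
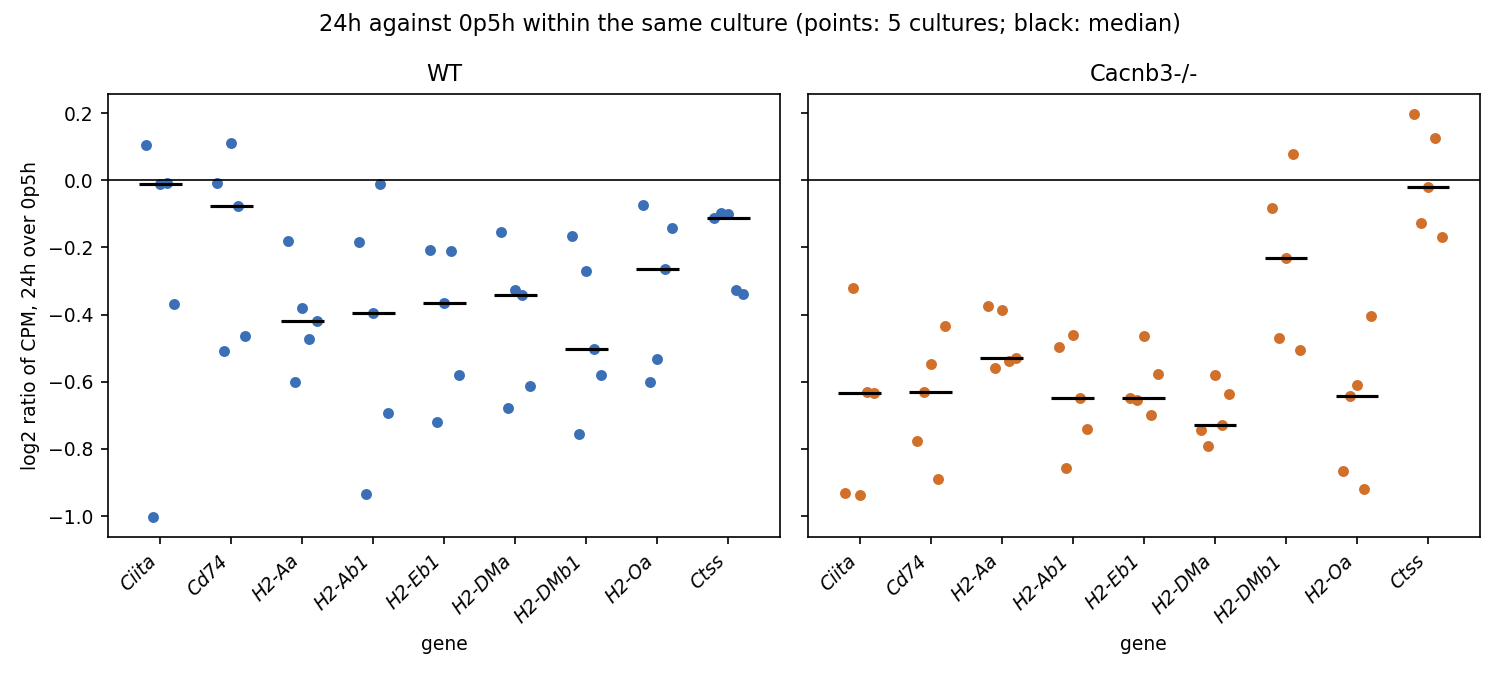
log2 ratio of CPM in 24h over 0p5h in each culture for each of the 9 genes, in WT (left) and Cacnb3-/- (right), with a black bar at the median of the 5 cultures and a line at 0 (no change). In each genotype all 5 points lie below 0 for 7 of the 9 genes. The points of Ciita and Cd74 reach across 0 in WT, and those of H2-DMb1 and Ctss in Cacnb3-/-. The ratios of H2-DMa in Cacnb3-/- are 0.576 to 0.667.

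Between 0p5h and ctrl, 8 of the 9 genes had a small positive value in each genotype, and none passed the test, with or without the block. The median log2 fold change was 0.10 in WT and 0.20 in Cacnb3-/-. Between 24h and ctrl the medians were -0.30 in WT and -0.39 in Cacnb3-/-, and none passed in the unpaired edgeR test or, in WT, in the blocked one (Ciita -0.42, adjusted p 0.105). Ciita was nevertheless lower in 24h than in ctrl in 5 of 5 WT cultures, with ratios of 0.515 to 0.974. By culture number the Cacnb3-/- ratios were 0.228 to 0.817. The pairing of those 2 sets was not accepted, because culture p974s843 correlated at only 0.0746, so these ratios are not read as changes within cultures. The ctrl and 0p5h comparisons share their 24h libraries.

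Whether the fall from 0p5h to 24h differed between the genotypes was tested as an interaction. The difference was -0.39 for Ciita (SE 0.60, adjusted p 0.849), -0.45 for Cd74 (SE 0.32, adjusted p 0.693) and -0.35 for H2-Oa (adjusted p 0.717) on the log2 scale in edgeR, where negative values mean a deeper fall in Cacnb3-/-. None of the 9 genes passed in any of the 3 interaction tests, in which 0%, 0% and 0% of all genes were called by edgeR, for 0p5h against ctrl, 24h against ctrl and 24h against 0p5h. With the culture as a block, the values in 24h against 0p5h were -0.46 for Cd74 (SE 0.16, adjusted p 0.109) and -0.42 for Ciita (SE 0.20, adjusted p 0.177, edgeR). In DESeq2 with the block, Cd74 alone of the 9 passed (-0.46, adjusted p 0.0371), under 2-fold, beside 9.64% of all genes at an adjusted p under 0.05. For the other 8 genes a difference of the fall between genotypes was not shown by any of these fits, and for Cd74 it depended on the tool. Its size also depended on GC content. With that trend removed, the blocked value of Cd74 was -0.19 (adjusted p 0.473, edgeR).

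Other genes of the class II pathway were followed as a list of 23, of which 21 to 22 passed the filter on low counts in each comparison. Of these, 0 were called between genotypes by edgeR in any set or in the summed libraries. At an unadjusted p under 0.05 there were 5 in ctrl, 4 in 0p5h, 6 in 24h and 6 in the summed libraries, in either direction, beside 16.6%, 16.4%, 38.4% and 23.3% of all genes. The list median of the genotype difference was -0.12 in ctrl, -0.09 in 0p5h and -0.00 in 24h. H2-Ob, the beta chain that pairs with H2-Oa in H2-O, was the only one called between sets by the unpaired edgeR test.

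H2-Ob fell in WT cultures between 0p5h and 24h. It went from 20.6, 23, 33.2, 36.9 and 11.5 CPM to 10.9, 7.8, 8.64, 9.06 and 5.03 CPM. Every 24h value lay below every 0p5h value, and the within-culture ratios were 0.246 to 0.531. The log2 fold change was -1.59 (SE 0.30, adjusted p 0.027, edgeR), a 3.01-fold lower level, and -1.53 (SE 0.16, adjusted p 7.45e-04) with the culture as a block. The unpaired call was lost without WT culture p974s846 (-1.78, adjusted p 0.0804), p974s850 (-1.60, adjusted p 0.156), p974s855 (-1.48, adjusted p 0.152) or p974s856 (-1.44, adjusted p 0.146), and held without p974s864 (-1.64, adjusted p 0.00564, edgeR). The blocked call held with any 1 culture left out, at adjusted p between 0.0011 and 0.00483 in edgeR.

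In Cacnb3-/- cultures H2-Ob went from 19, 23.7, 14, 19.2 and 40.9 CPM to 19, 12.2, 7.57, 14.8 and 9.86 CPM. Culture p974s843 hardly moved (ratio 0.999) and culture p974s865 moved most (0.241). The log2 fold change was -0.88 (SE 0.31, adjusted p 0.207), or -0.86 (SE 0.24, adjusted p 0.0208) with the block in edgeR. The interaction was 0.71 (SE 0.44, adjusted p 0.686, edgeR), so a difference of the fall between genotypes was not shown. Both chains of H2-O had lower levels in 24h than in 0p5h in 10 of 10 cultures.

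Marchf1, the ubiquitin ligase that removes class II from the surface of immature dendritic cells, had lower 24h values in every WT culture and higher ones in 4 of 5 Cacnb3-/- cultures. In WT it went from 24.5, 25.3, 29.3, 36.4 and 22.6 CPM in 0p5h to 13.7, 21.3, 19.5, 18.9 and 16 CPM in 24h, without overlap (-0.62, adjusted p 0.0991 in edgeR, and 0.00698 with the block). In Cacnb3-/- it went from 30.1, 27.2, 11.7, 10.4 and 40.6 CPM to 37.9, 36.2, 18, 17 and 26.3 CPM (0.19, adjusted p 0.792, edgeR). The interaction of 0.81 had an adjusted p of 0.68 in edgeR. With the culture as a block it was 0.88 (adjusted p 0.108) in edgeR and 0.91 (adjusted p 0.0181) in DESeq2, so the call depended on the tool. With a trend with GC content also removed, the blocked interaction was 0.56 (adjusted p 0.204, edgeR), and the Cacnb3-/- change was 0.00. Against ctrl, the WT 24h value was -0.84 (adjusted p 0.136 in edgeR, and 0.0073 with the block).

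Of the related genes of the same locus, none passed the adjusted threshold between genotypes. H2-Eb2, a beta chain gene next to H2-Eb1, had log2 fold changes of -1.11 in ctrl (SE 0.37, adjusted p 0.249), -0.95 in 0p5h (adjusted p 0.281) and -0.65 in 24h (adjusted p 0.155, edgeR). H2-DMb2 differed by -0.27, -0.22 and -0.20, and H2-Ob by -0.27, -0.09 and 0.62. In the blocked edgeR fit of 24h against 0p5h, 4 of 21 list genes had an adjusted p under 0.05 in each genotype, beside 11.3% of all genes in WT and 28.6% in Cacnb3-/-. The count in Cacnb3-/- is below that background. In WT, besides H2-Ob and Marchf1, H2-Eb2 fell by 0.46 (adjusted p 0.0102) and Cd82, a tetraspanin of class II compartments, by 0.35 on the log2 scale. In Cacnb3-/-, besides H2-Ob, the same fit gave Cd82 -0.49 (adjusted p 0.00229) and Rab7b, a late endosomal GTPase, -0.36 as lower and Sppl2a, the protease that clears the invariant chain stub, as higher (0.38).

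Among the lysosomal genes that prepare antigen, Cst3 and Ifi30 had lower mean levels in Cacnb3-/- in every set. Cst3, the cysteine protease inhibitor cystatin C, stood at 9059, 8200, 8639, 11699 and 5932 CPM in the WT 24h libraries and at 3953, 5472, 4928, 4940 and 6785 CPM in those of Cacnb3-/-. Only Cacnb3-/- culture p974s865 lay above the lowest WT library, and the log2 fold change was -0.73 (SE 0.22, adjusted p 0.0519, edgeR). It was -0.37 (adjusted p 0.189, edgeR) with a trend with GC content removed. Ifi30, the lysosomal thiol reductase GILT, differed by -0.71 in ctrl (adjusted p 0.246), -0.54 in 0p5h (adjusted p 0.277) and -0.62 in 24h (adjusted p 0.0686, edgeR). Lgmn, legumain, went the other way, at 0.28, 0.34 and 0.32 (adjusted p 0.132 in 24h, edgeR). In DESeq2, 4 of the 23 list genes had an adjusted p under 0.05 in 24h, beside 26.4% of all genes. Cst3, Ctsz and Ifi30 were lower and Ctsl higher, all under 2-fold.

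The list of 25 transcription regulators of class II genes, all of which were tested, held 0 genes called by edgeR in any comparison. Its median genotype difference was 0.02 in ctrl, 0.02 in 0p5h and 0.08 in 24h. Rfx5, the RFX subunit that anchors Ciita at the X box, differed by -0.41 in ctrl (adjusted p 0.249, edgeR), -0.25 in 0p5h and -0.20 in 24h. The only regulator called by DESeq2 was Carm1, an arginine methyltransferase that acts as a coactivator, at -1.26 in 24h (SE 0.38, adjusted p 0.0121). In that genotype comparison DESeq2 called 4.74% of all genes, so 1 of the 25 regulators is near that share.

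With the culture as a block, 12 of the 25 regulators had an adjusted p under 0.05 in Cacnb3-/- 24h against 0p5h, beside 28.6% of all genes. Of these 7 rose, among them Irf1 (0.60 on the log2 scale) and Creb1 (0.59), and 5 fell, among them Spi1 (-0.39), which encodes PU.1, the interferon gamma receptor chain Ifngr1 (-0.50), and Carm1 (-0.75). Irf1 is known to act on the promoter of Ciita that responds to interferon gamma. In WT the blocked edgeR fit gave 3 regulators, beside 11.3% of all genes, with Irf1 (0.62) and Usf1 (0.30) higher and Ifngr1 (-0.52) lower. All were under 2-fold.

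How the genes moved together from culture to culture was described by Pearson's r of log2(CPM + 0.5) over the 30 libraries, after subtraction of the mean of each of the 6 groups. The 3 libraries of a culture share their cells, so these are 10 cultures and not 30 independent points, and no test is given. H2-Eb1 was closest to Ciita among the 8 other members (r = 0.93), followed by Cd74 (0.80), H2-Oa (0.79), H2-Ab1 (0.71), H2-Aa (0.65), H2-DMa (0.51) and Ctss (0.43). H2-DMb1 stood apart at -0.05. The median over all 8354 genes with a mean of at least 10 CPM was 0.05, and H2-Eb1 ranked 13th, Cd74 434th and H2-DMb1 4669th among them.

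High likeness to Ciita was not particular to class II genes. The 5 genes outside the pathway with the highest r were Mdh2 (0.95), Xpnpep1 (0.95), Palld (0.94), Tesk1 (0.94) and Ppp1ca (0.94). Among the followed genes, Ifi30 had 0.82, H2-Eb2 0.77, Cst3 0.73, H2-Ob 0.62, H2-DMb2 0.53, Marchf1 0.48, Rfx5 0.26, Cacnb3 -0.01 and Lgmn -0.79. The 36 pairs of the 9 genes ranged from -0.08 (H2-DMb1 with H2-Oa) to 0.93, with a median of 0.65, and Cd74 went closely with H2-Ab1 (0.91) and H2-DMa (0.86).

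**Figure D5:**
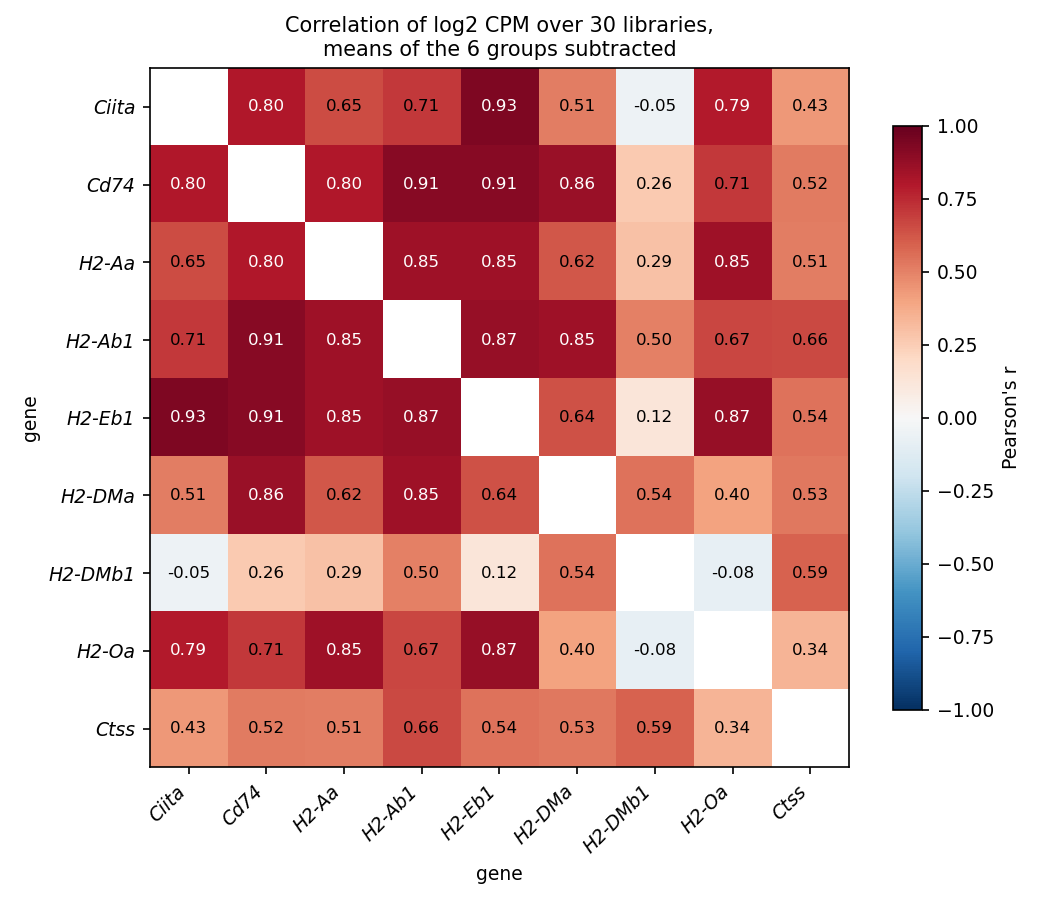
Pearson's r between each pair of the 9 genes over the 30 libraries (10 cultures), with the means of the 6 groups subtracted, as a colour scale with the value in each cell. Ciita and H2-Eb1 form the closest pair (0.93), and the row of H2-DMb1 is the palest, down to -0.08 with H2-Oa.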

How the data were processed

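Libraries were grouped by genotype label and by the set in the library name, because the treatment labels of ctrl and 0p5h conflict with the names. The authors deposited raw counts per gene for 30 libraries. Per the file headers, featureCounts 1.5.1 counted read 1 alignments on Ensembl release 79 exons (GRCm38) with default settings, without strand and leaving out multi-mapping reads. Per the submitters' processing notes, STAR 2.4 and the mm10 build were used. The study's methods name another sequencer and build than the labels, and the header of the count table was followed. Symbols were matched for 38981 of 43629 identifiers.

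Counts were tested with edgeR 4.0.16 (quasi-likelihood, TMM, filterByExpr with a minimum count of 10 and a minimum total of 15) in R 4.3.3, with p-values adjusted after Benjamini and Hochberg over all genes tested. Calls required at least 2-fold and an adjusted p under 0.05. The genotype was the only term within a set and the set the only term within a genotype. Tables were handled with Python 3.11.15 and pandas 2.3.3, and the test scripts were tested on simulated data. CPM used TMM library sizes, and CPM per kb also the exon length in the count table. Lanes were read from the library columns' names.

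The 9 genes and the lists were chosen with earlier results of these data known. Named were all 9 genes, every list gene called in a comparison (at most 5 each way), H2-DMb2, H2-Ob, H2-Eb2, Rfx5, Marchf1, Ifi30, Lgmn and Cst3, Cacnb3, and the 5 genes most like Ciita. List genes named for an adjusted p under 0.05 with the block or in DESeq2, and the marker genes named, were chosen after their values were seen.

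Culture numbers in the library names pair the sets of a genotype. The numbers were taken to pair the libraries where the deviations from the group means of every same-numbered pair correlated above 0.1. The lowest correlations were 0.600, 0.437 and 0.419 in WT (0p5h against ctrl, 24h against ctrl, 24h against 0p5h) and 0.317 and 0.430 in Cacnb3-/- (0p5h against ctrl, 24h against 0p5h). In Cacnb3-/- 24h against ctrl it was 0.0746 (culture p974s843), so that blocked fit is given only among the alternatives.

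Alternatives were DESeq2 1.42.0, its size factors in edgeR, no filter, a fit of all 30 libraries, removal of a trend with GC content, the culture as a block, and each culture left out. Lane as a covariate, DESeq2 with the block, no fold minimum, blocked fits with a culture left out, and omission of the 3 shallowest Cacnb3-/- 24h libraries were added after the data were seen.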

Additional observations from a re-analysis of the deposited data

How the results depend on the processing

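The edgeR test called 0 of the 9 genes in each of the 13 comparisons. In the genotype comparison of 24h, DESeq2, no filter on low counts and a fit of all 30 libraries each called 1 (Ciita). Without the fold minimum those settings gave 4, 2 and 4. In the summed libraries DESeq2 called 1, and 1 without the fold minimum. With 1 culture left out, the counts ranged from 0 to 1 in 24h (0 to 4 without the fold minimum), from 0 to 1 in the summed libraries (0 to 2) and from 0 to 0 in ctrl (0 to 1, H2-Oa without WT p974s864), and were 0 in the other unblocked comparisons.

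With the culture as a replicate block, no member reached 2-fold with an adjusted p under 0.05. Without the fold minimum, the block gave 4 of 9 in WT 24h against 0p5h (6 with GC content removed, 6 in DESeq2 with the block, and 0 to 5 with 1 culture left out) and 7 in Cacnb3-/- (7, 7, and 7 to 7). For Cacnb3-/- 24h against ctrl, where the pairing was not accepted, it gave 3 (Ciita -0.85, adjusted p 0.039, H2-DMa and H2-Oa), and 6 in DESeq2. For WT 24h against ctrl, block and GC removal gave 1 and DESeq2 with the block 2. DESeq2 with the block gave 2 in Cacnb3-/- 0p5h against ctrl and 1 (Cd74) in the interaction of 24h against 0p5h. Unblocked and without the fold minimum, WT 24h against 0p5h gave 1 in DESeq2 and 2 with lane as a covariate, and Cacnb3-/- 24h against 0p5h gave 1 in DESeq2. The causes were not tested.

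Of 1926 values of the 9 genes under the alternatives, 1867 kept direction and side of the threshold, 8 became called (Ciita between genotypes), and 51 changed sign without being called in either fit. Of 9877 values of the other listed genes, 9280 kept both, 18 became called, 4 lost a call (H2-Ob) and 575 changed sign uncalled. Over all genes, the called number ranged from 0 to 146 between genotypes in ctrl, 0 to 83 in 0p5h, 0 to 615 in 24h and 0 to 251 in the summed libraries, against 0 in each edgeR test, and with 1 culture left out it reached 249 in ctrl, 1129 in 24h and 380 in the summed libraries. Between sets it ranged from 23 to 76, 1 to 147 and 81 to 233 in WT (main values 23, 2 and 82) and from 33 to 85, 0 to 150 and 66 to 367 in Cacnb3-/- (37, 0 and 84), for 0p5h against ctrl, 24h against ctrl and 24h against 0p5h. With 1 culture left out it was 3 to 13, 0 to 2 and 39 to 72 in WT and 16 to 26, 0 to 3 and 20 to 66 in Cacnb3-/-.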
